A study of Mus musculus with 28 samples.

Results

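The genes described here encode the machinery of oxidative phosphorylation. They were taken from the count table of mouse pituitary RNA by symbol, as the rows whose names begin with Nduf, Uqcr, Cox4 to Cox8 or Atp5, together with Sdha, Sdhb, Sdhc and Sdhd. The rule found 92 of 32594 genes. By the complex they belong to, 44 are genes of complex I, 4 of complex II, 8 of complex III, 20 of complex IV and 16 of complex V. Of the 92, 75 are subunits found in most tissues, 8 are tissue-restricted isoforms of complex IV subunits, 8 are assembly factors of complex I and 1 is the coupling factor Atp5s. The 75 include Cox7a2l of complex IV, which is classed as a supercomplex factor. Cyc1, which the names leave out, was counted in a list of further subunits and carriers, and the genes encoded by mitochondrial DNA were not analysed here.

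Oxidative phosphorylation takes place in the inner mitochondrial membrane. Complexes I and II pass electrons from NADH and succinate to ubiquinone, complex III hands them on to cytochrome c and complex IV to oxygen, and complex V, the ATP synthase, uses the proton gradient that complexes I, III and IV build to make ATP. Nearly all subunits are encoded in the nucleus and are present in nearly every cell type, so the genes are often read as a measure of mitochondrial content. A few complex IV subunits have isoforms for muscle, brown fat, lung or testis.

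Whole pituitaries of male and female C57BL/6J mice, 8 weeks old on arrival, were sequenced. Paradoxical sleep deprivation (PSD) kept mice for 12 h on columns above water, which interrupts mainly REM sleep, and restraint held mice for 20 min in a tube. Tissue was taken 18 h after the end of PSD and, in restrained mice, 10 min after the end of restraint, and the question was how lost sleep alters the pituitary's response to stress. The female groups were home cage control, restraint, PSD, and PSD + restraint, with 4 mice each. The male groups were home cage control (4 mice), restraint (2 mice), PSD (3 mice) and PSD + restraint (3 mice). All mice, controls included, had been accustomed to the PSD tank on the days before, and none carried a transgene.

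Library totals lay between 14024465 and 52948531 counts. The hormone genes Gh, Prl and Pomc together took 24.8 to 34.3% of the counts of each mouse. The oxidative phosphorylation genes took 0.560 to 0.691% in 27 mice and 0.882% in the remaining 1, the restrained female numbered 3. This library stood apart in other ways. The brown fat gene Ucp1, the uncoupling protein of thermogenic fat, reached 216 CPM in it and at most 1.23 CPM in any other mouse (CPM, counts scaled to a library of 1000000 after adjustment of library sizes). Elovl3, a fatty acid elongase of brown fat, reached 9.06 CPM and at most 0.0905 CPM elsewhere. Cidea, a lipid droplet protein, reached 118 CPM against 11.1 to 62.6 CPM in the others, and the summed level of the 3 brown fat markers was 342 CPM against 11.3 to 62.8 CPM. Its 8 striated muscle markers summed to 6.72 CPM, within the range of the other mice (2.79 to 7.37 CPM), but 1 of them, Myl1, was at 1.69 CPM against at most 0.427 CPM elsewhere. Results that rest on this library are given with and without it.

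Promoters are printed for members on which later results turn, as the 250 bases before the transcription start in RefSeq (build GRCm38.p6; for Atp5d the later of 2 listed starts). Atp5d encodes the delta subunit and Atp5e the epsilon subunit of the central stalk of ATP synthase, Cox8b is an isoform of a complex IV subunit, and Ndufaf4 is an assembly factor of complex I. Capitals mark a motif searched on both strands, an ETS core on the other strand in Atp5e and, in Ndufaf4, an NRF1 motif that overlaps itself on both strands.
Atp5d, chr10:80142065-80142314, plus strand: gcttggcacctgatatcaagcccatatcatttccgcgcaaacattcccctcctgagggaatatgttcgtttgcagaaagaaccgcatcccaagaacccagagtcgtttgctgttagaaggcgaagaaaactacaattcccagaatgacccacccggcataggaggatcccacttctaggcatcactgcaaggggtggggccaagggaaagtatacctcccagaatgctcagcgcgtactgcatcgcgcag
Atp5e, chr2:174464102-174464351, minus strand: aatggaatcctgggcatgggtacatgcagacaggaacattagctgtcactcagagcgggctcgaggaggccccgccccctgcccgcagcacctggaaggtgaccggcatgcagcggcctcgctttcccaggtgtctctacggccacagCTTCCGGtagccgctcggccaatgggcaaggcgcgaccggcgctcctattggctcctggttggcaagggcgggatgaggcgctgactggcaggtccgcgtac
Cox8b, chr7:140900447-140900696, minus strand: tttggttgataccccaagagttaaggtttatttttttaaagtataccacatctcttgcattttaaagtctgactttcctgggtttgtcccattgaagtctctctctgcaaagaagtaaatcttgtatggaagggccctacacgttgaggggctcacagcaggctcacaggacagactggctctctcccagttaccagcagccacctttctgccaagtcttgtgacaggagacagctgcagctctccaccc
Ndufaf4, chr4:24897833-24898082, plus strand: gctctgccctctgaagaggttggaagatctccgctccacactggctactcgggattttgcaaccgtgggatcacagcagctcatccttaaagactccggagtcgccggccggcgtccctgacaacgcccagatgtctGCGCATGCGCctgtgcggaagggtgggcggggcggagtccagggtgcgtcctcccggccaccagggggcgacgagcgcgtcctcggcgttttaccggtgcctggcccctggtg

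RefSeq gave 82 promoters for 76 of the members. The NRF1 motif GCGCATGCG was found in 8.54% of them and in 1.45% of the 32851 promoters of all genes. The ETS core CCGGAAG was found in 15.9% against 6.91%, the CRE TGACGTCA in 4.88% against 1.55% and the YY1 motif AAGATGGCG in 2.44% against 0.606%. The ERR motif TCAAGGTCA was found in 1.22% of the members' promoters and 0.387% of all. Among the 82 the matches were few: 7 for NRF1, 13 for the ETS core, 4 for the CRE, 2 for YY1 and 1 for ERR. These are exact matches of the letters in 1 window and say nothing of binding. None of the 5 motifs was matched in the printed windows of Atp5d and Cox8b.

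Levels between genes were compared per length (of all exons joined, unless stated), as CPM per kb of exon averaged over the 28 mice. The median of the subunits was 34.0 CPM per kb in complex I, 41.0 in complex II, 52.0 in complex III, 69.2 in complex IV and 29.1 in complex V. With the longest transcript as the length it was 46.8, 51.9, 61.9, 88.9 and 58.4 CPM per kb, so that complex IV had the highest median by both lengths and the place of complex V moved from last to the third highest.

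Within complex I the small accessory subunits Ndufa1 (129.6 CPM per kb) and Ndufa2 (115 CPM per kb) had the highest levels, and Ndufab1, the acyl carrier protein, the lowest of the subunits with 2.66 CPM per kb. Sdha, the flavoprotein that oxidises succinate, led complex II with 69.4 CPM per kb, ahead of the membrane anchors Sdhd (55.3) and Sdhc (19.1 CPM per kb, the lowest). In complex III the hinge protein Uqcrh and the accessory subunit Uqcr11 shared the highest level, 91.3 CPM per kb each, and the core protein Uqcrc1 had the lowest with 23.3 CPM per kb. Cox8a reached 303 CPM per kb, the highest of all 92 genes, followed in complex IV by Cox6a1 with 161 CPM per kb, while Cox5a stood at 12.3 CPM per kb. The F1 subunits Atp5a1 (181 CPM per kb) and Atp5b (129 CPM per kb), which form the catalytic head of ATP synthase, led complex V, and Atp5l had the lowest level there with 4.78 CPM per kb. By the longest transcript Cox8a (341 CPM per kb) remained the highest of all, and the lowest subunit of each complex was the same gene. Both lengths come from 1 annotation, so this is no independent check. The low places of Atp5l and Ndufab1 depend on long annotated exons, 6443 and 6883 bases joined. Before scaling by length Atp5l had a mean of 30.8 CPM, above Atp5k with 26.2. Ndufab1 had 18.3 CPM, above Ndufs5 with 15.3. The order below the top moved: Ndufa7 (119) came before Ndufa2 (115) in complex I, Uqcrh (141) stood above Uqcr10 (99.5) and Uqcr11 (96.7) in complex III, Cox4i1 (213) and Cox7a2l (182) came next to Cox8a with Cox6a1 (182) in complex IV, and Atp5b (284) passed Atp5a1 (212).

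The tissue-restricted isoforms of complex IV lay far below their common counterparts. Cox4i1 was at 105 CPM per kb and its lung isoform Cox4i2 at 1.59. Cox6a1 was at 161 and the muscle isoform Cox6a2 at 0.460 CPM per kb. Cox6b1 was at 133 and the testis isoform Cox6b2 at 3.10 CPM per kb. In the Cox7a family Cox7a2 was at 72.7, Cox7a2l, classed as a supercomplex factor, at 139, and the muscle and brown fat isoform Cox7a1 at 3.61 CPM per kb. Cox7b was at 60.6 against 0.185 for Cox7b2, and Ndufa4 at 65.7 against 2.37 for its hypoxia-induced relative Ndufa4l2. Of the Cox8 genes Cox8a had 303, Cox8b 9.25 and Cox8c 0.0167 CPM per kb. The means of Cox7a1 and Cox8b are set largely by the restrained female 3, and their medians over mice were 0.980 and 0.342 CPM.

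The 3 genes that encode the identical c-ring subunit of ATP synthase were all expressed, Atp5g3 at 52.7, Atp5g2 at 22.2 and Atp5g1 at 13.7 CPM per kb, or 133, 49.3 and 14.3 by the longest transcript. Cox7b2, with 0 to 9 counts a mouse, and Cox8c, with 0 to 2, were too low to be tested in any comparison, and Cox6a2 was not tested in the females alone. This left 89 members in the female fits, 90 in the male fits and 90 in the fits of all mice.

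**Figure D1:**
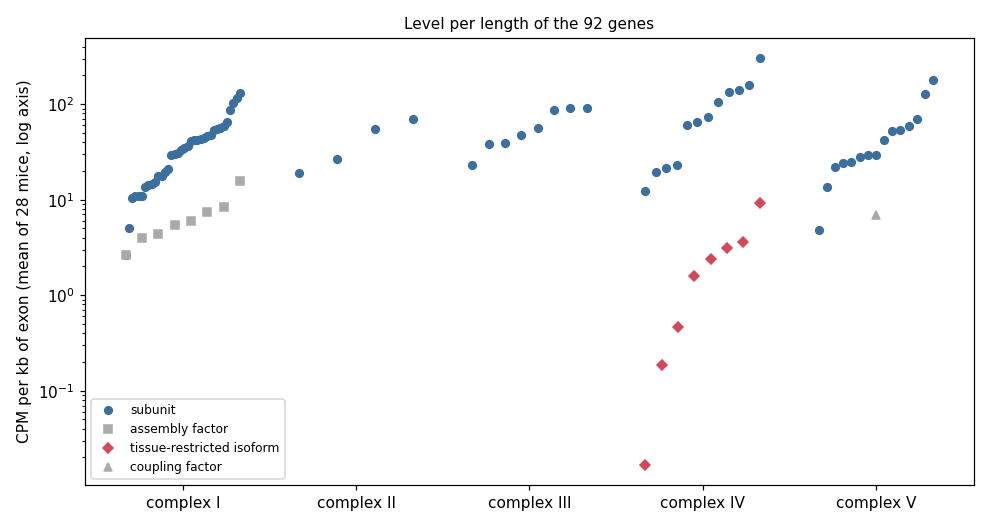
Level per length of each of the 92 genes (CPM per kb of exon, mean of 28 mice, log axis), placed by complex and ordered from low to high. Blue points are subunits, grey squares assembly factors, the grey triangle the coupling factor Atp5s and red diamonds the tissue-restricted isoforms, which all lie below the lowest other complex IV gene.

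The whole set of subunits kept a nearly constant level through the study. The mean log2 CPM of the 75 subunits was 5.96 ± 0.11 (SD, n = 4) in control females, 5.96 ± 0.09 (n = 4) after PSD and 5.94 ± 0.08 (n = 4) after PSD + restraint. In males it was 5.91 ± 0.07 (n = 4) in controls, 5.90 ± 0.01 (n = 2) after restraint, 5.97 ± 0.03 (n = 3) after PSD and 5.98 ± 0.02 (n = 3) after PSD + restraint. Restrained females alone stood higher, at 6.18 ± 0.28 (n = 4), with a range from 5.94 to 6.57, and at 6.04 ± 0.09 (n = 3) without mouse 3. In whole tissue, fewer cells of a type and less RNA per cell cannot be told apart.

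**Figure D2:**
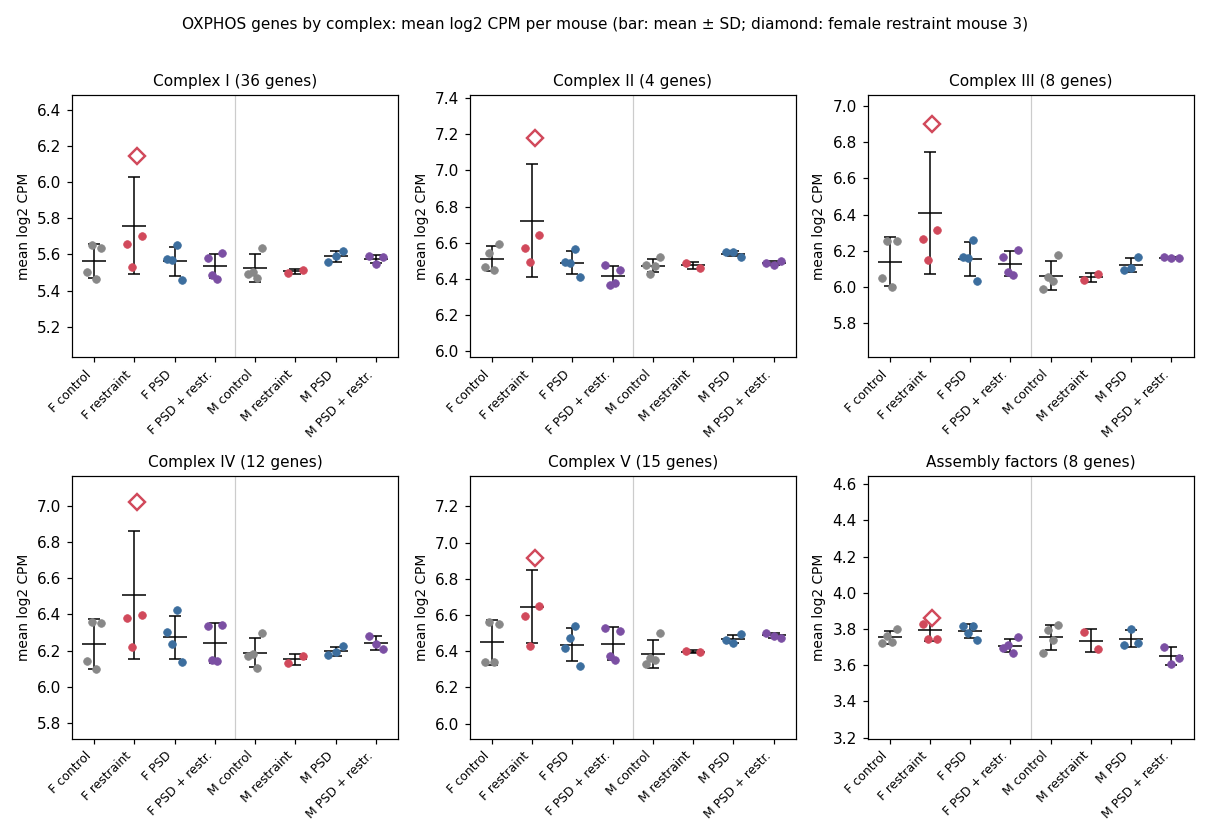
Mean log2 CPM of the subunits of complexes I to V and of the complex I assembly factors in each mouse, by group (F female, M male), with the group mean and SD as bars. The open diamond is restrained female 3, which lies above all other mice in the 5 complexes (complex IV 7.02 against at most 6.42) and at 3.86 against at most 3.83 in the assembly factors.

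In restrained females the genes of all 5 complexes had higher values than in home cage controls, with a median log2 fold change of 0.22 over the 89 members against 0.01 over all genes. The medians were 0.19 for complex I, 0.25 for complex II, 0.30 for complex III, 0.33 for complex IV and 0.18 for complex V, and 85 of the 89 were positive. At an unadjusted p under 0.05, 33 members were higher and 0 lower, where 5.6% of all genes were higher and 4.18% lower. After Benjamini-Hochberg adjustment of edgeR's quasi-likelihood test over all genes, 1 member was called higher, Atp5d, as were 0.482% of all genes. Calls were made where the adjusted p did not exceed 0.05 and the log2 fold change was 0.322 or more in either direction.

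Much of this height came with restrained female 3. Among the 4 restrained females, 83 of the 89 members had their highest value in her, where 30.1% of all genes did, and among the 16 females 76 of 89, where 11.6% of all genes did. Her log2 level over the mean of the other restrained females had a median of 0.50 for complex I, 0.69 for complex II, 0.62 for complex III, 0.70 for complex IV and 0.38 for complex V, with 75 of 75 subunits positive. Over all genes the median was -0.01, and over the assembly factors 0.12. Enzymes of the TCA cycle, which feeds the respiratory chain, had a median of 0.67 there. Mitochondrial ribosomal proteins, in the same organelle, had 0.13 and cytosolic ribosomal proteins -0.02.

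Without this mouse the median over the members was 0.06, 77 of 90 were positive, and 5 were higher and 1 lower at an unadjusted p under 0.05 (all genes 4.7% and 4.1%). By edgeR 0 members were called then, and 0.975% of all genes were. DESeq2, run with mouse 3 included, called 1, Atp5d. The brown fat markers above moved with the members in this library, and their part in the level of each subunit was not tested.

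**Figure D3:**
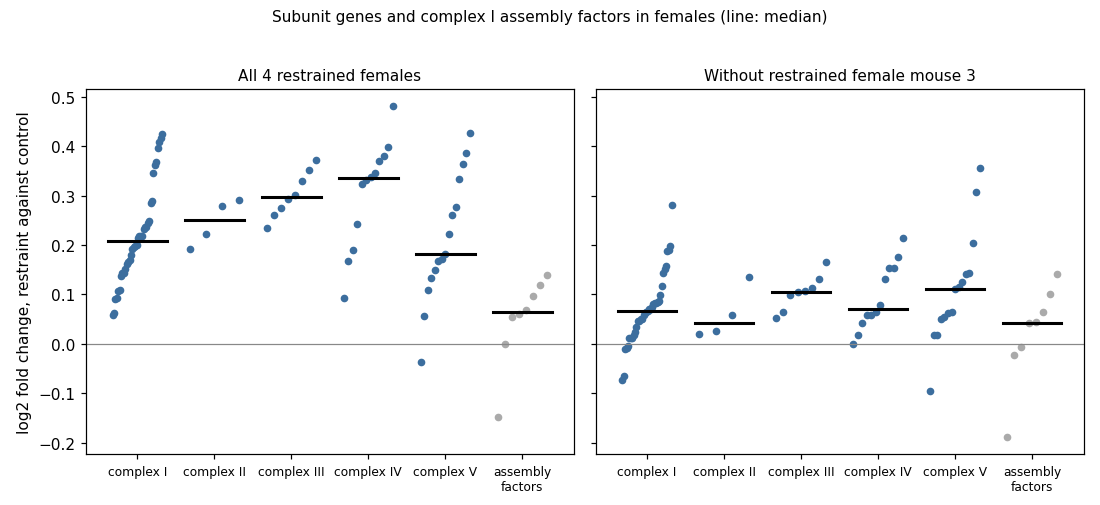
Log2 fold change between restrained and control females of each subunit (blue) and complex I assembly factor (grey), by complex, with all 4 restrained females (left) and without mouse 3 (right). Black lines are medians, and the median over all 75 subunits is 0.24 on the left and 0.07 on the right.

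The largest values belonged to isoforms of the brown fat and muscle type. Cox8b measured 0.334, 0.386, 82.1 and 0.271 CPM in the 4 restrained females and 0.515, 0.633, 0.142 and 0.371 CPM in the control females. Only mouse 3 was above the controls, and the other 3 restrained females lay within their range. The log2 fold change of 5.67 (SE 1.59, adjusted p = 0.160, edgeR) became -0.28 (adjusted p = 0.976) without her. Cox7a1 measured 1.08, 0.956, 26.1 and 1.29 CPM after restraint and 0.927, 1.04, 0.826 and 0.913 CPM in controls. Its log2 fold change of 2.99 (SE 0.87, adjusted p = 0.183, edgeR) was 0.26 (adjusted p = 0.860) without mouse 3. Cox6a2, which muscle shares with these isoforms, was not raised in this mouse, at 0.0974 CPM within the range of 0.0339 to 0.244 CPM of the others in her group.

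**Figure D4:**
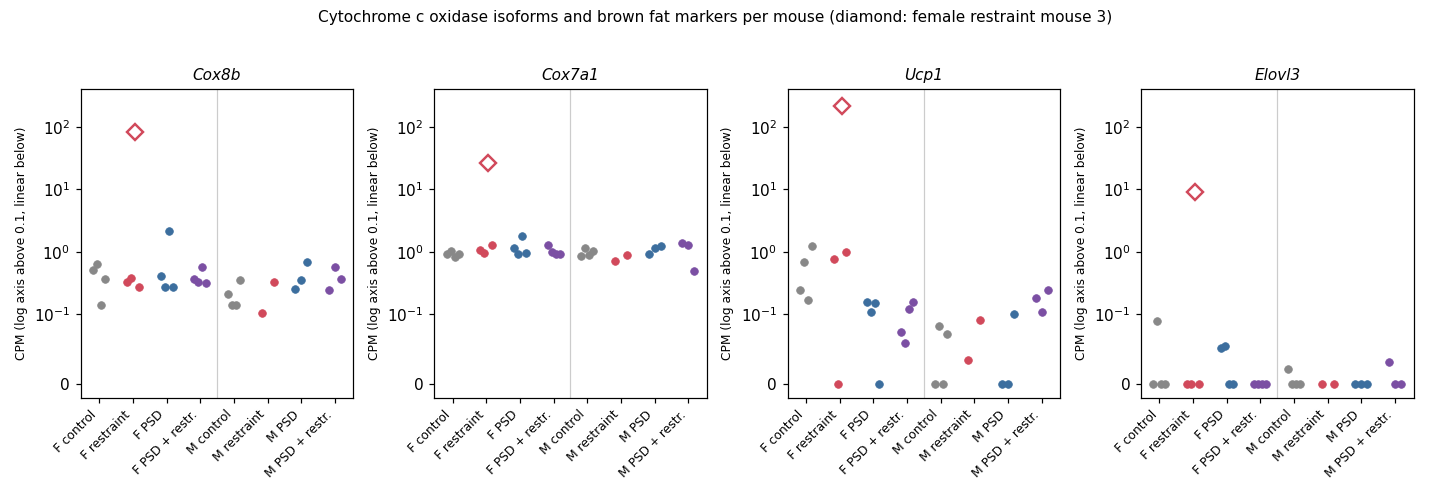
CPM of the complex IV isoforms Cox8b and Cox7a1 and of the brown fat markers Ucp1 and Elovl3 in each mouse, by group (log axis above 0.1, linear below). In each panel restrained female 3 (diamond) is at 9.06 CPM or more and every other mouse at 2.19 CPM or less.

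Atp5d was the member that moved with restraint most evenly. In females it measured 114, 126, 114 and 139 CPM in controls and 153, 150.2, 159 and 168 CPM after restraint. All 4 restrained females were above all 4 controls, and mouse 3, with 159 CPM, was not apart from the rest of her group. The log2 fold change was 0.36 (SE 0.08, adjusted p = 0.0402, edgeR). It was again 0.36 without mouse 3, with an adjusted p of 0.0623. The call is close to its threshold: over the fits that left out 1 mouse each, the adjusted p ran from 0.0248 to 0.170 and the call was kept in 4 of 16, those without control mouse 4, PSD mouse 4 or PSD + restraint mouse 1 or 2.

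After PSD + restraint Atp5d measured 163, 138, 157 and 136 CPM in females, 2 of whom lay just below the highest control. The log2 fold change was 0.28 (SE 0.08, adjusted p = 0.0624). In males the controls had 103, 109, 124 and 126 CPM, the PSD + restraint mice 148, 176 and 146 CPM and the 2 restrained mice 129.6 and 138 CPM. Both restrained groups lay above all male controls. The log2 fold change of the males was 0.44 (SE 0.09, adjusted p = 0.0261) after PSD + restraint and 0.21 (SE 0.11, adjusted p = 0.9998) after restraint alone. PSD without restraint left Atp5d at 114 to 128 CPM in females and 107 to 132 CPM in males, which overlap the controls.

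Atp5d lies on chromosome 10 (GRCm38, 80138632 to 80145818, plus strand, in GENCODE M21) and overlaps the gene Dos on the opposite strand by 2204 bases, of which 68 are exonic in both. Dos rose with restraint as well, by a log2 fold change of 0.82 (adjusted p = 3.6e-04) after restraint and 1.10 (adjusted p = 1.4e-06) after PSD + restraint in the fit of all mice. Midn, 2453 bases away on the same strand, rose by 1.06 (adjusted p = 1.4e-04) and 1.30 (adjusted p = 1.7e-06). The library kit was a stranded one and HTSeq ran in its intersection-nonempty mode, but the strand setting of the counting is not given. How reads of the shared stretch were assigned is therefore not known. The part of Dos in the counts of Atp5d was not tested.

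After PSD alone 0 members were called in females (0.0277% of all genes were) and the median log2 fold change was 0.01. DESeq2 also called 0, and at an unadjusted p under 0.05 there were 2 higher (10.6% of all genes) and 0 lower (9.14%). The 3 with the smallest p were Cox6b2 (log2 fold change 0.61, adjusted p = 0.206), the complex I assembly factor Ndufaf6 (0.23, adjusted p = 0.249) and Atp5g1 (-0.26, adjusted p = 0.318). Cox6b2 ran from 2.77 to 8.01 CPM over the 4 PSD females, and without PSD mouse 3 its log2 fold change was 0.18. Without restrained female 3, which shares the fit, 55.6% of the members and 51.5% of all genes had a positive log2 fold change. The smallest p were those of Cox6a2 (2.41, adjusted p = 0.0997), tested only there, Ndufc1 (0.24, adjusted p = 0.121), an accessory subunit of complex I, and Cox4i1 (0.19, adjusted p = 0.157). Cox6a2 had 1 to 3 counts in each control female and passed the filter there mainly through mice with PSD, where it is high. Its p is therefore not independent of that height.

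PSD + restraint in females gave 0 calls by edgeR and by DESeq2 as well (2.2% of all genes were called by edgeR). The median was -0.02, and 1 member was higher (9.7% of all genes) and 2 were lower (10.5%) at an unadjusted p under 0.05. With the score of neurointermediate lobe markers as a term the median was 0.121, the opposite direction. Without restrained female 3, in the fit without that term, 36.7% of the members and 51.6% of all genes had a positive log2 fold change. Beside Atp5d, the smallest p belonged to Atp5sl, which is named Dmac2 today and helps build the membrane arm of complex I (log2 fold change -0.19, adjusted p = 0.192), and to Atp5g1 (-0.32, adjusted p = 0.221).

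In males restraint alone gave 0 calls by either tool (0.296% of all genes by edgeR), a median of -0.02 and 0 members higher (3.01% of all genes) and 2 lower (2.06%) at an unadjusted p under 0.05. Only 2 restrained males were sequenced. The value of Cox7a2l was -0.21 on the log2 scale (adjusted p = 0.729), Ndufa3, an accessory subunit of complex I, -0.16 (adjusted p = 0.976) and Ndufb4, another, 0.20 (adjusted p = 0.982).

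After PSD the male values leaned upward. At an unadjusted p under 0.05, 18 members were higher and 2 lower, where 4.51% of all genes were higher and 4.34% lower, and the median log2 fold change was 0.06. None was called by edgeR (0.00547% of all genes were), and DESeq2 called 1, Atp5e. After PSD + restraint 4 members were called higher (1.92% of all genes were) and 0 lower (0.635%), with a median of 0.05. The 4 were Cox6a2, Uqcrq, Atp5d and Atp5e, and DESeq2 called these 4 as well.

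Atp5e measured 77.0, 92.4, 84.0 and 109 CPM in control males, 119, 119 and 130.4 CPM after PSD and 120.2, 119 and 122 CPM after PSD + restraint. All 6 males with PSD lay above all 4 controls, and the restrained males, at 80.1 and 81.8 CPM, lay among the controls. The log2 fold change was 0.45 (SE 0.09, adjusted p = 0.159) after PSD and 0.42 (SE 0.09, adjusted p = 0.0317) after PSD + restraint, by edgeR. In females the PSD groups, at 80.0 to 119 CPM, overlapped the controls (80.5 to 103 CPM), and differed from them by 0.17 on the log2 scale after PSD (adjusted p = 0.523) and by 0.11 after PSD + restraint (adjusted p = 0.705). The difference between the sexes in these responses was -0.27 (adjusted p = 0.617) and -0.31 (adjusted p = 0.755). Restraint alone also came with higher Atp5e in females, at 151 CPM in mouse 3 and a mean of 113 CPM in the others. The log2 fold change there was 0.43 (adjusted p = 0.268, edgeR), and 0.31 (adjusted p = 0.506) without mouse 3. Neither was called.

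Uqcrq, a small subunit of complex III, measured 58.2, 60.7, 62.6 and 70.3 CPM in control males, 71.6, 71.6 and 82.2 CPM after PSD and 77.5, 81.7 and 79.2 CPM after PSD + restraint. Again the males with PSD were all above the controls and those with restraint alone, at 60.9 and 64.7 CPM, were not. The log2 fold change was 0.26 (SE 0.07, adjusted p = 0.303) after PSD and 0.34 (SE 0.07, adjusted p = 0.0250) after PSD + restraint, by edgeR. In females it was 0.13 (adjusted p = 0.688) and 0.01 (adjusted p = 0.981).

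Cox6a2, the isoform of heart and skeletal muscle, was the member with the largest change by PSD, at a very low level. It measured 0.255, 0.167, 0.178 and 0.288 CPM in control males, 0.570, 0.772 and 0.590 CPM after PSD, and 0.618, 1.12 and 0.434 CPM after PSD + restraint. In females it measured 0.0412, 0.0452, 0.0855 and 0.0855 CPM in controls, 0.571, 0.273, 0.547 and 0.125 CPM after PSD, and 0.224, 0.251, 0.396 and 0.214 CPM after PSD + restraint. In each sex the PSD and PSD + restraint mice were all above the home cage controls, on 1 to 44 counts a mouse and 1 to 3 in each control female.

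In all mice together the log2 fold change of Cox6a2 was 1.85 (SE 0.34, adjusted p = 0.00772) after PSD and 1.79 (SE 0.34, adjusted p = 9.8e-04) after PSD + restraint. After restraint alone it was 0.34 (adjusted p = 0.881). Cox6a2 passed the filter on low counts mainly through mice with PSD, where it is high. Its calls are therefore not independent of that height. DESeq2 gave Cox6a2 no adjusted p after PSD in all mice. The male fit gave 1.71 (SE 0.35, adjusted p = 0.0225) for PSD + restraint. Cox6a2 lies on chromosome 7 within Itgad, which is on the opposite strand and had at most 0.139 CPM in any mouse. Summed striated muscle markers ran from 2.81 to 5.09 CPM in control males, 3.53 to 3.83 CPM after PSD and 2.79 to 5.65 CPM after PSD + restraint. In females they ran from 3.75 to 4.84 CPM in controls, 3.94 to 7.37 CPM after PSD and 3.88 to 6.59 CPM after PSD + restraint. The groups overlapped in both sexes, and 0 of the 8 muscle markers were called in all mice after PSD or PSD + restraint by edgeR. At an unadjusted p under 0.05, for which no share of all genes is given here, 0 of the 8 were higher after PSD and 3 after PSD + restraint. The part of muscle RNA in the level of Cox6a2 was not tested. Of the markers of melanotrope and corticotrope cells, Pcsk2 had 0.98 (adjusted p = 0.0544) and Pomc 1.03 (adjusted p = 0.0606) in all mice after PSD. Neither was called. The other neurointermediate lobe markers ran from 0.16 (Rax, adjusted p = 0.817) to 0.45 (Pax7, adjusted p = 0.314) there. In males after PSD, Lhx2 (-0.23) and Rax (-0.02) had negative values. With the lobe score as a term Cox6a2 had 1.75 after PSD (adjusted p = 0.0348) in all mice.

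**Figure D5:**
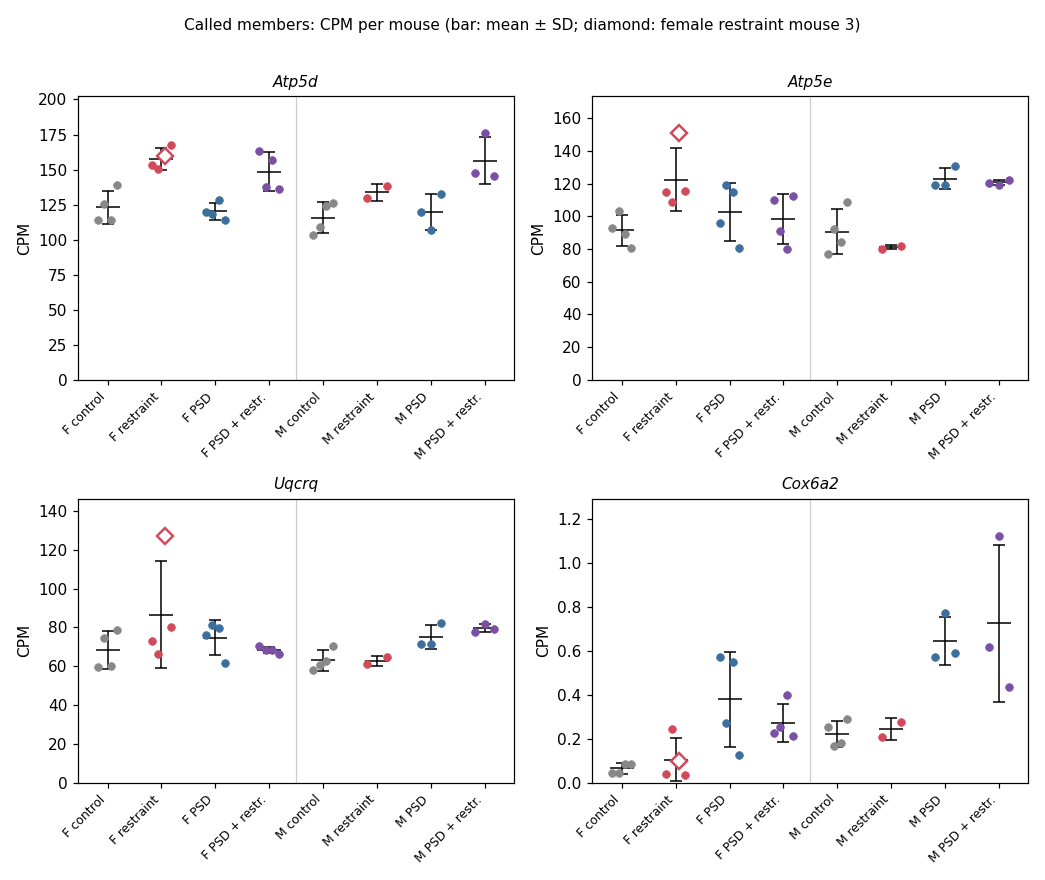
CPM per mouse of Atp5d, Atp5e, Uqcrq and Cox6a2 by group (F female, M male), with group means and SD as bars, axes from 0. Atp5d is above all controls of its sex in the restrained females and in both restrained male groups, and Atp5e and Uqcrq are above controls in the males with PSD.

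The male calls are near their threshold. Leaving out control mouse 2, or PSD + restraint mouse 1 or 2, left 0 of the 4 called, and leaving out control mouse 3 left 1. Without PSD + restraint mouse 2 the log2 fold change of Cox6a2 was 1.25 (adjusted p = 0.136). The sum of the 6 neurointermediate lobe markers also moved with the groups. It was 236 to 1110 CPM in control males (236 CPM in mouse 1) and 1169 to 2101 CPM in PSD + restraint males. A sum gives most weight to its most abundant genes. After PSD alone, the single markers in males ran from -0.23 (Lhx2) to 0.83 (Pcsk2), with none called. With the lobe score as a term, Atp5d was at 0.36, Uqcrq at 0.29, Atp5e at 0.32 and Cox6a2 at 1.64. Their adjusted p lay between 0.0648 and 0.0675, so that none of the 4 was called. The 1 member called with that term was Atp5sl, lower with -0.42 (adjusted p = 0.0416).

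The fit of all mice held more samples. After restraint the median of the members was 0.13, or 0.04 without female 3. The 1 call (0.935% of all genes were called higher) was Cox8b, with 4.77 (adjusted p = 0.0268), which was -0.15 without her. Its adjusted p without 1 control female was 0.0547 to 0.0789. Atp5d, with 0.32 (SE 0.07, adjusted p = 0.00902), was just under the fold threshold, and had 0.30 (adjusted p = 0.0231) without her. After PSD the 1 call was Cox6a2 (0.565% of all genes were higher), and the median was 0.03.

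After PSD + restraint Atp5d and Cox6a2 were called (4.1% of all genes were higher), with 0.35 (SE 0.07, adjusted p = 7.1e-04) for Atp5d, and the median was 0.02. Without male PSD + restraint mouse 2, Atp5d had 0.30 (adjusted p = 0.00312), under the fold threshold. Atp5sl went the other way, with -0.26 (SE 0.07, adjusted p = 0.0152), inside the fold threshold. It measured 28.1, 23.8, 27.5 and 28.003 CPM in control females and 22.2, 23.4, 26.4 and 21.2 CPM after PSD + restraint. In males it measured 25.03, 26.3, 30.6 and 30.8 CPM in controls and 21.4, 24.1 and 21.3 CPM after PSD + restraint, all below the controls, while the female groups overlapped.

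For the interaction of PSD and restraint 0 members were called by edgeR and DESeq2, as was 0% of all genes by edgeR. The median was -0.16, with 12 members lower (2.13% of all genes) and 0 higher (1.8%) at an unadjusted p under 0.05. Without female 3 the median was -0.06, and 22.2% of the members and 48.7% of all genes were positive. Likewise 0 members were called for a difference between the sexes in any of the 3 responses by either tool, as was 0% of all genes by edgeR. For restraint the median difference, female minus male, was 0.24 with 20 higher (2.35% of all genes) at an unadjusted p under 0.05. Without female 3 it was 0.08, and 74.4% of the members and 48.3% of all genes were positive. For PSD the median difference was -0.05, with 0 higher (6.1%) and 1 lower (4.66%) at an unadjusted p under 0.05. For PSD + restraint it was -0.08, with 2 higher (3.39%) and 1 lower (3.81%). Without female 3, 31.1% of the members were positive for PSD (50.8% of all genes) and 23.3% for PSD + restraint (49.6%).

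Females and males differed little in these genes. By adjusted p and fold, 1 member was called, Cox6a2, lower in females (7.79% of all genes were), with a log2 difference, female minus male, of -1.25 (SE 0.25, adjusted p = 2.7e-04). Cox6a2 entered this fit, too, mainly through mice with PSD. By adjusted p alone, 9 were higher in females (17.7% of all genes) and 1 lower (16.7%). The smallest p was that of Ndufaf4, with 0.29 (SE 0.05, adjusted p = 1.4e-04). It ran from 19.7 to 28.3 CPM in females and from 15.8 to 21.4 CPM in males, which overlap in a few mice. Uqcrh had 0.22 (SE 0.06, adjusted p = 0.00429) and Ndufc2, an accessory subunit of complex I, 0.18 (adjusted p = 0.00481). Without female 3, Sdha was also lower in females, with -0.11 (adjusted p = 2.1e-04), and the median fell from 0.05 to 0.02.

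The other genes of the pathway were read in the fit of all mice after PSD + restraint, by adjusted p alone (5.56% of all genes were higher and 5.34% lower). Of 7 tested subunits and carriers outside the naming rule, among them Cyc1 and Cycs, 0 passed. Of 39 assembly factors outside the rule, 0 were higher and 6 lower, with the smallest p for Taco1, a translational activator of complex IV (-0.26, adjusted p = 0.00337), and Cox15, which makes heme A (-0.21, adjusted p = 0.00887). Of 18 TCA cycle enzymes 0 passed. Of 17 nuclear regulators, 1 was higher and 3 lower, among the latter the transcription factor Nrf1 (-0.22, adjusted p = 0.00695) and the mitochondrial transcription factor Tfam (-0.19, adjusted p = 0.0352). Of 76 mitochondrial ribosomal proteins 0 were higher and 9 lower, with a median of -0.09, while the median of the 90 members was 0.02.

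The genes most like the mean of the 75 subunits over the mice, after the group means were removed, were Dnajc15 (Pearson r 0.947), Suclg1 (0.934), Ucp1 (0.924), Mpc1 (0.922) and Etfb (0.918) of 18846 genes and 28 mice. Without female 3 they were Pomp (0.911), Tceb2 (0.910), Pebp1 (0.891), E030024N20Rik (0.885) and Rps12 (0.880) over 27 mice. These are descriptions, the mice sharing library and depth effects across genes.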

How the data were processed

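Pituitary RNA of 28 mice was sequenced as paired-end reads. The authors used MapSplice for alignment (mm10) and HTSeq 0.9.1 with UCSC gene models for counting, and the deposited values used here are these raw counts. A second deposited table holds counts divided by a size factor, a normalized signal, and was not used. Genes kept by filterByExpr were tested with edgeR 4.0.16 (R 4.3.3, limma 3.58.1) by the quasi-likelihood test with TMM scaling. The model held PSD, restraint and their interaction in each sex, with sex as a further term for all mice, and 1 mean per sex and treatment for differences between the sexes. Adjusted p-values are Benjamini-Hochberg values over all genes tested (18059 in females, 18271 in males, 18936 in all mice), never over the members alone. Calls took an adjusted p up to 0.05 together with a log2 fold change of 0.322 or beyond, higher or lower. Log2 CPM used a prior count of 2.

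Alternatives were DESeq2 1.42.0, other size factors, other low-count filters, a block on replicate number, fits limited to the groups at issue, a term for neurointermediate lobe markers, the robust option, no fold threshold, exon lengths of the longest transcript and each mouse left out. The test was checked on simulated data with changes larger than those of Atp5d, Atp5e and Uqcrq, so the check does not cover changes as small as theirs. The interaction and the differences between the sexes were not simulated. Totals of 14024465 to 52948531 counts a mouse limit low genes such as Cox6a2. Mice of a group differed by more than counting noise (lowest chi-square per degree of freedom 7.48 in 37 pairs), so all were kept as separate samples. Named members are those called, the 3 of smallest p in each comparison, the extremes of level per length in each complex, the isoform families and those too low to test. Members and lists were chosen with earlier results of these data known. Positions and lengths are from GENCODE M21. The NRF1 and YY1 motifs were shortened by 1 letter after a first search.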

Additional observations from a re-analysis of the deposited data

Results flagged for a closer look

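Within groups of 4 mice, 10 of 135 sets of values of 27 named members or scores had 1 mouse farther from the rest than Dixon's critical value allows. Many of these members were named from results in the same mice, so the usual chance rate of about 1 in 20 does not apply. Of these, 6 were highest in restrained female 3, the mouse with brown fat transcripts: Cox8b with 82.1 CPM (next 0.386), Cox7a1 with 26.1 CPM (next 1.29), Atp5e with 151 CPM (next 115), Ndufv1, the flavin-binding core subunit of complex I, with 149 CPM (next 96.9), Ndufaf3 with 33.0 CPM (next 27.5) and Ndufa4l2 with 4.03 CPM (next 2.47). Female PSD mouse 3 had Cox8b at 2.19 CPM (next 0.416). Female control mouse 2 had Atp5sl at 23.8 CPM (next 27.5) and female control mouse 4 had Cox6b2 at 3.31 CPM (next 2.85). Ndufa3 was at 47.7 CPM in female PSD + restraint mouse 4 (next 39.1). In none of 81 comparisons of these members and scores did treated and control mice separate fully in both sexes but in opposite directions.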

How the results depend on the processing

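Restrained females had 0 members called in place of 1 with DESeq2's size factors, with no filter on low counts, with only the groups compared and with a replicate block. Males had 1 called after PSD with DESeq2. After PSD + restraint they had 2 in place of 4 with a replicate block or only the groups compared, and with the neurointermediate lobe score 1 that was not among the 4, Atp5sl. For female against male the count was 10 without a fold threshold, and 0 with at least 10 counts in every mouse, which drops Cox6a2, or with the replicate block. For restraint in all mice it was 2 without a fold threshold and 0 with at least 10 counts, the robust option, only the groups compared or DESeq2. The replicate block left 1 there but replaced Cox8b by Atp5d (adjusted p = 0.0338). For PSD in all mice it was 0 with at least 10 counts or with DESeq2, which gave Cox6a2 no adjusted p, and for PSD + restraint 1 with at least 10 counts or with the lobe score. The median of females after PSD + restraint was 0.121 with that score. DESeq2 gave no adjusted p in 10 cases, left out here. Median levels per length by the longest transcript stand in the text.

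Leaving out 1 mouse moved the counts over 0 to 1 in females for restraint, PSD and PSD + restraint, 0 to 1 in males for PSD, 0 to 4 in males for PSD + restraint, 0 to 3 for restraint and 1 to 2 for PSD + restraint in all mice. The median ran from 0.065 to 0.30 for restraint in females and from 0.081 to 0.31 for the sex difference in restraint, the lowest without restrained female 3. Cox8b ran from -0.28 to 6.08 in females and from -0.15 to 5.21 in all mice, negative only without her. No other named member changed sign, but medians near 0 did: those of females after PSD and PSD + restraint, males after restraint, and all mice after PSD + restraint and between the sexes. Equal replicate numbers did not pair the mice: 2 of 24 same-number pairs in females and 2 of 15 in males correlated above 0.1. With 2 restrained males and 1 to 44 counts of Cox6a2 a mouse, small changes there were not detectable. The cause of each change was not tested.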

Other observations

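Some genes that help make or steer the respiratory chain were lower after PSD + restraint, while most of those listed did not pass. In the fit of all mice 6 of 39 assembly factors outside the naming rule were lower by adjusted p alone (edgeR), as were 5.34% of all genes. The 6 were Taco1, Cox15, Coa4 (-0.31, adjusted p = 0.0157), Cox10 (-0.33, adjusted p = 0.0312), Sdhaf2 (-0.14, adjusted p = 0.0381) and Sco1 (-0.24, adjusted p = 0.0424). Cox10 and Cox15 make the heme of complex IV, Sco1 delivers its copper, and Sdhaf2 attaches the flavin of complex II. Only Cox10 was also past the fold threshold. Beside Nrf1 and Tfam, the mitochondrial transcription factor Tfb2m was lower (-0.23, adjusted p = 0.0384) and the coactivator Ppargc1b higher (0.49, adjusted p = 0.0377). After restraint alone none of these passed, the nearest being Nrf1 (-0.19, adjusted p = 0.0863). Coa4, Cox10, Sdhaf2, Sco1, Tfb2m and Ppargc1b were named after their values were seen.

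Of the cytosolic ribosomal proteins, 61 of 82 were higher in females by adjusted p alone (17.7% of all genes), with a median log2 difference of 0.19, against 9 of 90 and 0.05 for the oxidative phosphorylation genes. Among early response genes, 8 of 10 were called higher after PSD + restraint in all mice (4.1% of all genes) and 6 of 10 after restraint (0.935%). PSD without restraint also came with positive values in all mice, from 0.40 (Dusp1, adjusted p = 0.709) to 1.75 (Egr1, adjusted p = 0.0968) by edgeR, with none called. In males after PSD, Nr4a1 had 3.20 (adjusted p = 0.0736).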
